A study of Homo sapiens with 13 samples.

Results

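The first hour of Silvestrol was examined in MDA-MB-231 cells by ribosome profiling, which sequences the mRNA fragments covered by ribosomes (ribosome footprints, RFs). Genes with at least 100 RF reads in the library from cells given DMSO for 1 h were used, which left 9941 of the 24875 gene symbols in the deposited table, and 9930 of them had an RPKM value (reads scaled by counted length and by library size) in both 1 h libraries. MDA-MB-231 is a human triple-negative breast cancer line of mesenchymal character, and cells of passage 3 were given fresh medium with 25 nM Silvestrol or the DMSO vehicle for 1 h, with 1 RF library on each side. The other RF libraries are an untreated one of passage 3 and, for 2 h of DMSO or of 25 nM Silvestrol, one each of passage 3 and passage 4. mRNA was sequenced at 2 h in passage 3. The labels of 2 libraries disagree with themselves. One field of the passage 3 Silvestrol RF library at 2 h gives 1 h, and one field of the DMSO mRNA library calls it untreated. The table names no treatment for that mRNA library. The titles were followed for both.

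Silvestrol is a rocaglate that binds the RNA helicase eIF4A. This helicase is the subunit of the cap-binding complex eIF4F that unwinds the 5′ UTR so that the small ribosomal subunit can load and scan to the start codon. Rocaglates clamp eIF4A onto RNA, with a preference for runs of purines, and mRNAs with long or structured 5′ UTRs are known to depend most on the helicase. Many of those mRNAs encode regulators of growth and survival with short-lived proteins, whereas mRNAs for metabolic enzymes and mitochondrial proteins often carry very short 5′ UTRs.

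The DMSO 1 h library held 31188148 counted reads and the Silvestrol 1 h library 20614917. The other RF libraries held from 2652423 (Silvestrol 2 h, passage 4) to 26393419 reads. Of the mesenchymal genes expected in this line, VIM had 6902 RPKM, CAV1 1314 RPKM and AXL 119 RPKM in the DMSO 1 h library, while the hormone receptors ESR1 and PGR and the luminal factor FOXA1 were at 0 RPKM and CDH1, which encodes E-cadherin, was at 0.0274 RPKM. Other epithelial genes were low but read, with 7.82 RPKM for GATA3, 4.05 RPKM for ERBB2 and 3.46 RPKM for EPCAM. Markers of blood, T, liver and fibroblast cells were at 0 RPKM (CD3E, ALB), 0.0123 RPKM (PTPRC) and 1.79 RPKM (COL1A1). KRT8 was listed at 0 RPKM in the passage 3 RF libraries and at 22.4 and 21.1 RPKM in those of passage 4, while its partner keratin KRT18 had 60.9 RPKM in the DMSO 1 h library.

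The 5′ UTRs of the genes with the lowest footprint ratios held purine and CGG repeats more often than those of other genes, and a few are shown because the later description by transcript feature refers to them. Each window is 30 bases of the 5′ UTR, 5′ to 3′ on the mRNA strand and written with T, with 1 repeat per window in capitals (others in the same window are not marked) and positions on GRCh37 (the build called hg19). A GA repeat is GAGAGA or AGAGAG, or a longer run that holds either, and a CGG repeat is CGG 4 or more times in a row, both searched on the mRNA strand only. Of the 9810 members with an annotated transcript, 11.1% had a GA repeat and 4.91% a CGG repeat in the 5′ UTR.
FOSL2, an AP-1 transcription factor (chr2:28615809-28615838, plus strand): gaggGAGAGAGAGAGAGAGAGAGAGggaga
MAP2K1, the kinase MEK1 (chr15:66679372-66679401, plus strand): ggttggttGAGAGAGAGAGAGgaagggaat
ARHGEF11, a guanine nucleotide exchange factor (chr1:157015177-157015206, minus strand): ctggccgggcGAGAGAGAGggagagagaag
TLE1, a transcriptional corepressor of the Groucho family (chr9:84304117-84304146, minus strand): ccctcgggtggtGAGAGAactttgcagtgg
SNX33, a sorting nexin (chr15:75941129-75941158, plus strand): agtaggagttagGAGAGAttcccctctaac
GSK3B, a kinase of Wnt and insulin signalling (chr3:119812282-119812311, minus strand): aggaaaaggtgattcgcgaAGAGAGtgatc
CDK6, a G1 kinase (chr7:92462875-92462904, minus strand): ctcctcCGGCGGCGGCGGCGGCGGcgactc
RAB5A, a GTPase of early endosomes (chr3:19988755-19988784, plus strand): gcgcCGGCGGCGGCGGCGGCGGCGGaggag
ARF6, a GTPase of the plasma membrane (chr14:50360373-50360402, plus strand): tcggtttcgCGGCGGCGGCGGcgttgttgg
EIF4EBP2, an inhibitor of eIF4E (chr10:72163971-72164000, plus strand): atcgagCGGCGGCGGCGGCGGCGGctgaga

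At 1 h many more genes were lower than higher with Silvestrol. RPKM was lower by a fold of 2 or more in 758 genes (7.63% of the 9930) and higher by as much in 10 (0.101%), and the median log2 change over all genes was −0.19 (25th percentile −0.53, 75th percentile 0.08). With 1 library on each side this comparison has no test, and RPKM is scaled within each library, so a loss shared by all mRNAs would not be visible. In lysates of whole cultures, fewer cells with footprints on a gene and fewer footprints per cell cannot be told apart. The scaling and the read minimum also matter to the counts. Centred on the median of all genes, 437 genes were lower and 22 higher, and reads scaled by TMM (edgeR's trimmed mean of M-values) without the counted length gave 410 and 26. Without a read minimum 1409 genes were lower and 299 higher, and with a minimum of 500 reads 505 and 2. As CPM, without the counted length, 484 genes were lower, so that genes given below with values near −1 can lie under the fold on that scale. List medians below are therefore read against the median of −0.19, and values are on the log2 RPKM scale with DMSO at 1 h as the base. As a measure of spread without drug, the log2 ratio of the DMSO 2 h library of passage 3 to the untreated library had an SD over genes of 0.23, with 0.312% of genes past a fold of 2, against an SD of 0.48 and 7.73% for Silvestrol at 1 h.

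**Figure D1:**
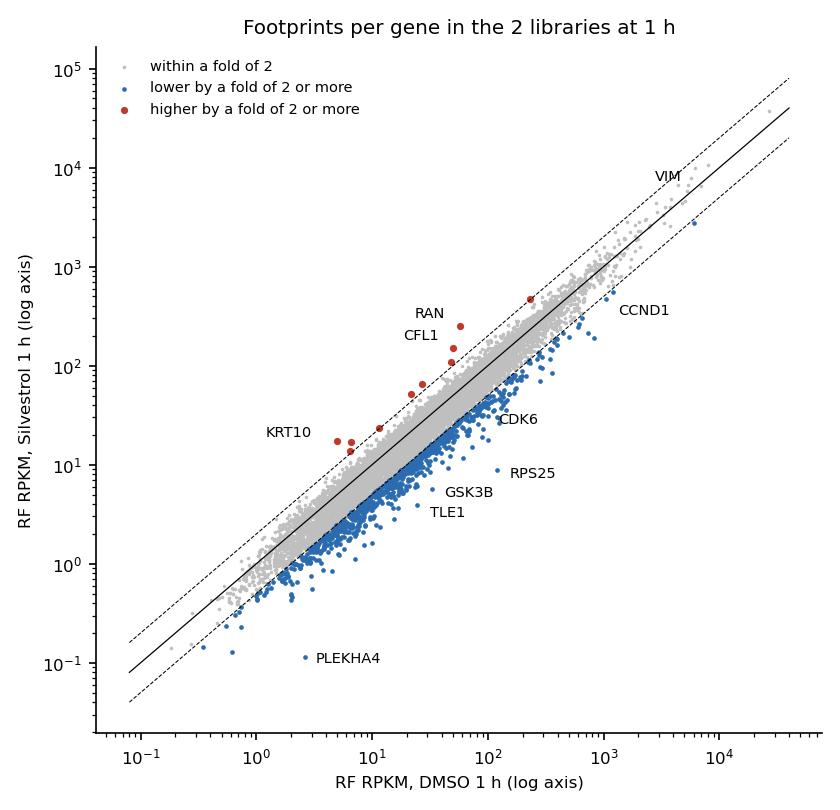
Each point is one of 9930 genes, with its RF RPKM in the DMSO 1 h library on the x axis and in the Silvestrol 1 h library on the y axis, both on log axes. The solid line marks equal values and the dashed lines a fold of 2. The 758 genes below the lower line are in blue and the 10 genes above the upper line in red.

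The Silvestrol 1 h value was also set against all 4 RF libraries without drug (untreated, DMSO 1 h and both DMSO 2 h). It was below all of them in 46.6% of genes and above all of them in 15.5%. Of the 758 genes lower by a fold of 2, 742 were below all 4, a count partly set by their choice, since DMSO at 1 h is one of the 4. All 3 Silvestrol RF libraries, at 1 h and 2 h, were below all 4 drug-free libraries in 34.5% of genes and above them in 10.5%. Among the 758 genes this separation held for 710, and the 1 h libraries that chose them are again on both sides. The 758 genes had a median DMSO level of 15.6 RPKM, against 23.9 RPKM for all genes. The 747 genes just under the read minimum (50 to 99 reads) had a median change of −0.30, and the 518 genes just over it −0.31.

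Of the 10 genes with the lowest ratios, RPS25 is described with the ribosomal proteins. TLE1 had 25.5, 24.6, 20.9 and 17.9 RPKM in the untreated, DMSO 1 h, DMSO 2 h passage 3 and DMSO 2 h passage 4 libraries, and 3.93 RPKM with Silvestrol at 1 h. Its log2 change at 1 h was −2.65 (95% exact binomial interval −2.84 to −2.45, from 1712 and 244 reads). Such intervals cover counting error only. The 10 genes were chosen by their 1 h ratios, so their distance from DMSO at 1 h is partly set by that choice. GSK3B had between 31.2 and 33.4 RPKM in the 4 drug-free libraries and 5.66 RPKM at 1 h, a log2 change of −2.54 (−2.75 to −2.33). Neither gene's Silvestrol values overlapped its drug-free values, and both were lower still at 2 h, with 2.42 and 3.51 RPKM for TLE1 and 3.72 and 3.33 RPKM for GSK3B (edgeR quasi-likelihood test of the 2 h counts, Benjamini-Hochberg adjusted p = 0.022 for each). SNX33 (−2.46), ARHGEF11 (−2.45), the ubiquitin ligase SH3RF3 (−2.44), SHISA2 (−2.41), a regulator of Wnt and FGF receptors, and DCAF16 (−2.39), a substrate receptor of a cullin ligase, followed. KIAA0754 was at −2.62 but had no transcript in the annotation used. PLEKHA4, a phosphoinositide-binding protein, had the lowest ratio of all, with 2.63 RPKM in DMSO and 0.115 RPKM with Silvestrol at 1 h (log2 −4.51, interval −5.74 to −3.51), from 253 and 8 reads. Its passage 4 Silvestrol library at 2 h had 0 RPKM. The 5′ UTRs of TLE1, GSK3B, SNX33, ARHGEF11, SHISA2 and DCAF16 were 1307, 1013, 1191, 1412, 1041 and 1060 nt long, those of PLEKHA4, SH3RF3 and RPS25 were 541, 336 and 59 nt, and that of the median gene was 135 nt.

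TGF-beta and BMP signalling had a median of −0.75 (−0.55 with the DMSO 2 h library of passage 3 as control, −0.47 with a pseudocount of 1 RPKM), and 10 of its 32 genes (31.2%, against 7.63% of all genes) were lower by a fold of 2 or more. SMAD3, which carries the TGF-beta signal to the nucleus, had 106, 114, 110 and 91.1 RPKM without drug and 35.5 RPKM with Silvestrol at 1 h (log2 −1.68, interval −1.76 to −1.59). At 2 h it had 33.2 and 39.9 RPKM (edgeR adjusted p = 0.027), so its 1 h value lay between the 2 h values. SMURF2, a ligase that targets SMADs and receptors, had 79.7 to 102 RPKM without drug, 34.5 RPKM at 1 h (log2 −1.29) and 18.1 and 21.3 RPKM at 2 h (adjusted p = 0.022). The partner SMAD4 (−1.16), the BMP effector SMAD1 (−1.09), the receptor BMPR2 (−1.13), the ligands TGFB1 (−1.09) and TGFB2 (−1.24), the BMP antagonist NOG (−1.37), the SMAD corepressor SKIL (−1.25) and the matrix protein LTBP2 (−1.03) were the other genes past the fold. LTBP1, which tethers latent TGF-beta, was the highest of the list at 0.30. At 2 h edgeR called 8 of the 32 genes lower and 0 higher, or 15 and 1 when the passage was a block, where the shares of all genes were 6.05% and 1.62%, or 26.6% and 23.9%.

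In the Notch and Wnt list the median was −0.67, 8 of 31 genes (25.8%, against 7.63% of all genes) were lower by a fold of 2 and 29 lay below the median of all genes. MAML2, a coactivator of Notch, had 17.9 to 19.7 RPKM without drug and 6.16 RPKM at 1 h (log2 −1.68, adjusted p at 2 h = 0.025). The receptors NOTCH2 (−1.14), FZD7 (−1.29), FZD2 (−1.24) and LGR4 (−1.42), the scaffold AXIN2 (−1.25), the adaptor DVL3 (−1.19) and the secreted antagonist DKK3 (−1.07) were also past the fold. Beta-catenin itself, CTNNB1, had 556 to 694 RPKM without drug and 381 RPKM at 1 h (log2 −0.55, interval −0.57 to −0.53, adjusted p at 2 h = 0.041), so that the 1 h value lay under all 4 drug-free values. APC, which targets beta-catenin for destruction, was the highest of the list at 0.13, and DKK1 was at 0.07.

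Feedback inhibitors of ERK signalling (DUSP phosphatases, SPRY and SPRED proteins) had a median of −0.59, with 6 of 21 genes lower by a fold of 2 (28.6%, against 7.63% of all genes). SPRY2 had 47.3, 67.3, 64.3 and 48.3 RPKM in the drug-free libraries in the order given for TLE1, 20.03 RPKM at 1 h (log2 −1.75) and 19.96 and 23.97 RPKM at 2 h (adjusted p = 0.046). Its mRNA was higher with Silvestrol at 2 h, 82.9 against 34.8 RPKM. DUSP6 (−1.21), SPRED2 (−1.13), DUSP4 (−1.12), DUSP14 (−1.04) and DUSP16 (−1.01) were past the fold, and DUSP11, an RNA phosphatase, was at 0.16. The RAS and MAPK list had a median of −0.43 and 4 of 41 genes past the fold (9.76%, near the 7.63% of all genes). MAP2K1 had 48.3 to 82.3 RPKM without drug and 25.9 RPKM at 1 h (log2 −1.67, adjusted p at 2 h = 0.029). As CPM, which leaves the counted length out, its change was −0.97. The p38 kinase MAPK14 went from 276 to 127 RPKM (log2 −1.12), with 255 to 296 RPKM in the drug-free libraries. In this list 10 genes were called lower at 2 h and 0 higher, or 21 and 5 with the block, where 6.05% and 1.62% of all genes were called, or 26.6% and 23.9%.

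The PI3K and mTOR list had a median of −0.48 and 6 of 30 genes past the fold (20%, against 7.63% of all genes). IRS1, the insulin receptor substrate, had 22.96 to 30.2 RPKM without drug, 10.5 RPKM at 1 h (log2 −1.52) and 9.80 and 10.8 RPKM at 2 h (adjusted p = 0.036). The kinases AKT1 (−1.46) and PIK3CA (−1.29), the adaptor IRS2 (−1.06) and the mTOR complex subunits MAPKAP1 (−1.30) and RPTOR (−1.04) were the others. PIK3C3, the lipid kinase of autophagy, was at 0.27. At 2 h edgeR called 7 of the 30 genes lower and 0 higher, or 15 and 7 with the passage as a block. Of all genes 6.05% and 1.62% were called, or 26.6% and 23.9% with the block. Receptor tyrosine kinases had a median of −0.30 (−0.01 with the DMSO 2 h library of passage 3 as control) with 3 of 16 genes past the fold (18.8%), FGFR1 (−1.21), ERBB2 (−1.01) and IGF1R (from 2.42 to 1.21 RPKM). At 2 h edgeR called 0 of these 16 genes lower and 0 higher, or 5 and 4 with the block. The edgeR adjusted p at 2 h was 0.059 for FGFR1 and 0.23 for ERBB2.

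Among cell cycle genes, the G1 list had a median of −0.36, with 4 of 26 genes past the fold (15.4%, against 7.63% of all genes), and the mitosis list −0.10, with 1 of 62 (1.61%). The difference between these lists was not tested. At 2 h edgeR called 3 of the 26 G1 genes lower and 0 higher, or 13 and 2 with the passage as a block. Of the 62 mitosis genes it called 4 lower and 0 higher, or 20 and 21 with the block. The shares of all genes were 6.05% and 1.62%, or 26.6% and 23.9% with the block. CCND1, which encodes cyclin D1, had 1041, 1047, 1070 and 1111 RPKM without drug and 476 RPKM at 1 h (log2 −1.14, interval −1.17 to −1.11). At 2 h it had 335 and 455 RPKM (adjusted p = 0.025). Its kinase CDK6 had 88.3 to 97.4 RPKM without drug, 38.3 RPKM at 1 h (log2 −1.32) and 24.3 and 25.8 RPKM at 2 h (adjusted p = 0.022). In both genes the drug-free values lay close together and apart from the Silvestrol values. CCND2 had 2.71 to 7.98 RPKM without drug and 2.502 RPKM at 1 h (log2 −1.43, 213 and 59 reads), so its 1 h value lay just under the lowest drug-free value. Its 2 h change was not called (adjusted p = 0.14) unless the passage was a block (3.1e-05). CDK4 (−0.36), CCNE1 (−0.14) and RBL2 (0.14) were closer to 0. TPX2, a spindle assembly factor, was the mitosis gene past the fold, with 333 to 451 RPKM without drug and 161 RPKM at 1 h (log2 −1.29). The mitotic cyclin CCNB1 had 758 to 929 RPKM without drug and 954 RPKM at 1 h (log2 0.16). CDK8, the kinase of the Mediator complex, had 8.63 to 11.2 RPKM without drug and 5.10 RPKM at 1 h (log2 −1.01).

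Of the BCL2 family, BCL2 had 3.66 to 5.06 RPKM without drug, 1.254 RPKM at 1 h (log2 −2.01, interval −2.68 to −1.40, 146 and 26 reads) and 0.336 and 1.64 RPKM at 2 h. The edgeR adjusted p of its 2 h change was 0.12 without and 1.9e-05 with a block for the passage. BCL2L1, which encodes BCL-XL, went from 385 to 189 RPKM (log2 −1.03) and was called lower at 2 h (adjusted p = 0.023). MCL1, a short-lived survival protein of the same family, stood at 406 RPKM in DMSO and 434 RPKM with Silvestrol at 1 h (log2 0.10), with 292 to 406 RPKM in the drug-free libraries. The pro-apoptotic PMAIP1 was the highest of the list at 0.74.

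RAB GTPases of membrane traffic had a median of −0.37, with 7 of 44 genes past the fold (15.9%, against 7.63% of all genes). RAB5A had 132 to 153 RPKM without drug and 52.0 RPKM at 1 h (log2 −1.56), with 43% of its coding length counted. The edgeR adjusted p of its 2 h change was 0.095, and 4e-07 with the passage as a block. RAB11A, a GTPase of recycling endosomes, had 366 to 432 RPKM without drug and 470 RPKM at 1 h (log2 0.30). ARF6 had 707, 827, 652 and 224 RPKM without drug and 188 RPKM at 1 h (log2 −2.13), but 8.04% of its coding length was counted and its reads as CPM gave −0.88, under the fold. Its 2 h change had an adjusted p of 0.12, and 1.5e-07 with the block. ROCK1, a kinase of the actin cytoskeleton, had 22.6 to 28.9 RPKM without drug, 11.6 RPKM at 1 h (log2 −1.12) and 7.28 and 8.15 RPKM at 2 h (adjusted p = 0.022). Ubiquitin-conjugating enzymes spread as widely, with a median of −0.50, from UBE2H at −1.46 to UBE2W at 0.50. Of these, 4 of 26 genes were past the fold (15.4%, against 7.63% of all genes).

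**Figure D2:**
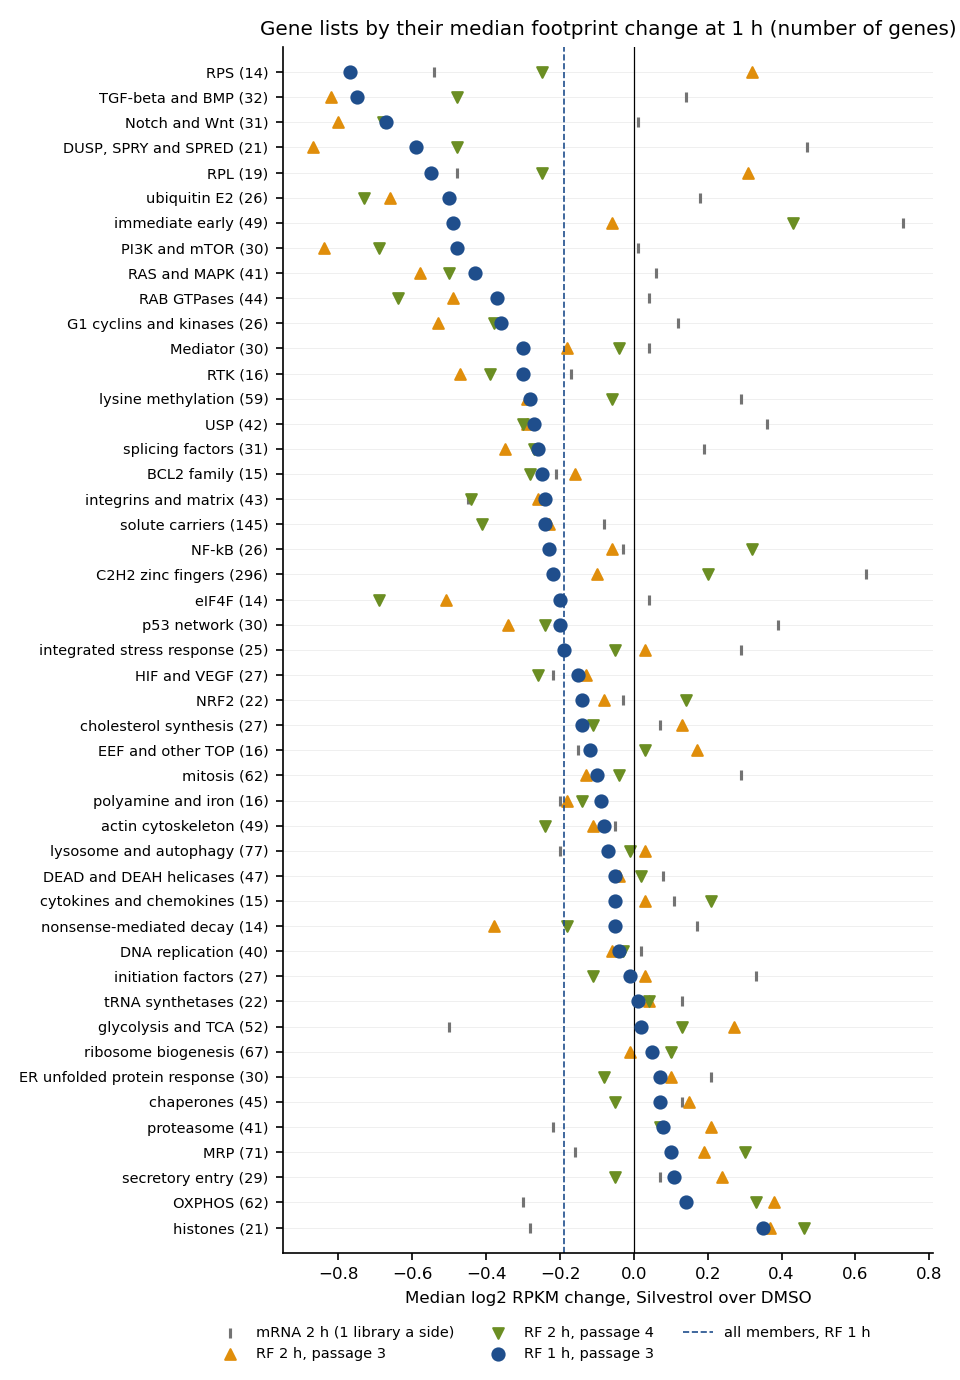
Median log2 RPKM change (x axis) of 47 gene lists (y axis, with the number of genes), ordered by the change at 1 h. Circles are RF at 1 h, triangles RF at 2 h in passage 3 (up) and passage 4 (down), ticks mRNA at 2 h, and the dashed line is the 1 h median of all genes, −0.19. The TGF-beta, Notch and Wnt, PI3K and RAS lists lie to the left of the dashed line in all 3 RF comparisons, OXPHOS subunits and histones lie to the right of 0 in all RF comparisons, and the immediate early genes lie at −0.49 at 1 h and at −0.06 and 0.43 at 2 h.

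Several lists of housekeeping genes lay above the median of all genes, −0.19, and splicing factors were at −0.26 (1 of 31 genes lower), but at 0.03 as TMM-scaled CPM, where the median of all genes was 0.00. The counts in these lists stand beside 7.63% of all genes lower by a fold of 2 and 0.101% higher. Replication-dependent histones had a median of 0.35 (0.16 with the untreated library as control, 0.20 for those with at least 50% of the coding length counted) over the 21 of 28 members with an RPKM at 1 h, and 0 of them were lower by a fold of 2. HIST1H1C, a linker histone, had 5163 to 7776 RPKM without drug and 7856 RPKM at 1 h (log2 0.45), and was called higher at 2 h (adjusted p = 0.029). Histone genes are near-identical copies, and 15 of the 21 had less than 50% of their coding length counted, so their single values are uncertain. Nuclear-encoded subunits of oxidative phosphorylation had a median of 0.14 (0 of 62 lower, 1 higher), mitochondrial ribosomal proteins 0.10 (0 of 71 lower), the secretory entry machinery 0.11 (0 of 29), proteasome subunits 0.08 (0 of 41), chaperones 0.07 (0 of 45), ribosome biogenesis factors 0.05 (0 of 67), glycolytic and TCA enzymes 0.02 (1 of 52) and tRNA synthetases 0.01 (0 of 22). ATP5B, the catalytic beta subunit of ATP synthase, had 929 to 1125 RPKM without drug and 1244 RPKM at 1 h (log2 0.27, adjusted p at 2 h = 0.032), although its mRNA was lower at 2 h, 393 against 695 RPKM. PSMB1, a proteasome subunit, had 1372 to 1620 RPKM without drug and 1674 RPKM at 1 h (log2 0.29, adjusted p at 2 h = 0.046). HK2, the hexokinase of many tumours, was the 1 glycolytic gene past the fold, with 12.9 to 22.9 RPKM without drug and 10.9 RPKM at 1 h (log2 −1.07), but as CPM its change was −0.48 and its 2 h change was not called (adjusted p = 0.22).

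Of the initiation machinery, eIF4A1, the main target of Silvestrol, had 164, 99.9, 133 and 249 RPKM for EIF4A1 without drug and 151 RPKM at 1 h (log2 0.60), inside the drug-free range and with 12.5% of its coding length counted. EIF4A2, its paralog, had 77.9 to 109 RPKM without drug and 176 RPKM at 1 h (log2 0.73, interval 0.62 to 0.83), above all 4. Reads that map to more than 1 place were not counted, and the values of both paralogs are uncertain. EIF4A3 of the exon junction complex had 343 to 409 RPKM without drug and 234 RPKM at 1 h (log2 −0.72, adjusted p at 2 h = 0.04). Within the eIF4F list EIF4EBP2 (−1.58), the eIF4A inhibitor PDCD4 (−1.22) and the poly(A)-binding protein cofactor PAIP1 (−1.12) were past the fold, and EIF4G1 was at −0.30. That made 3 of 14 genes past the fold (21.4%, against 7.63% of all genes). As CPM, EIF4EBP2 (140 and 51 reads) was at −0.86 and PAIP1 at −0.59. The list's median was −0.20 at 1 h and −0.51 and −0.69 in the 2 h passages. EIF5, the GTPase-activating protein of the initiation complex, was the lowest of the other initiation factors at −0.97 (adjusted p at 2 h = 0.04), and 0 of those 27 genes were past the fold.

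Of the 10 genes higher by a fold of 2 or more, 9 were above all 4 drug-free libraries, which include the DMSO 1 h library that chose them. The keratin KRT10 had 4.60, 4.93, 6.16 and 6.28 RPKM without drug, 17.2 RPKM at 1 h (log2 1.80, interval 1.62 to 1.99) and 18.3 and 19.7 RPKM at 2 h (adjusted p = 0.022). ATP5G2, a subunit of the ATP synthase rotor, had 18.9 to 32.1 RPKM without drug and 51.4 RPKM at 1 h (log2 1.24). The edgeR adjusted p of its 2 h change was 0.066, and 4.8e-10 with the block. FAU, which is processed to a ribosomal protein, had 184 to 348 RPKM without drug, 471 RPKM at 1 h (log2 1.01) and 818 and 562 RPKM at 2 h (adjusted p = 0.023), with 16.5% of its coding length counted. RAN, a GTPase of nuclear transport, had the highest log2 change, 2.14, but its drug-free values ran from 32.0 to 216 RPKM, against 252 RPKM at 1 h, and 10.3% of its coding length was counted. CFL1, an actin-severing protein, was at 1.57 with 24.6 to 74.6 RPKM in the passage 3 libraries without drug, but it had 4949 and 5568 RPKM in the passage 4 DMSO and Silvestrol libraries. The mitochondrial protein LYRM2 (1.29), the proteasome subunit PSMA6 (1.18) and the entries AK309286 (1.37), DKFZp434D199 (1.08) and DM119432 (1.03) made up the rest. When the 9243 genes with at least 50% of their coding length counted were used alone, an alternative added after the values were seen, 2 genes were higher by a fold of 2 and 686 lower.

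Ribosomal protein genes had low medians at 1 h, −0.77 for 14 RPS genes and −0.55 for 19 RPL genes, but their values also varied without drug. In each list 4 genes were lower by a fold of 2 (28.6% and 21.1%, against 7.63% of all genes). RPS16 had 499, 108, 45.9 and 849 RPKM in the untreated, DMSO 1 h, DMSO 2 h passage 3 and DMSO 2 h passage 4 libraries, and 44.4 RPKM with Silvestrol at 1 h. RPL30 had 226 to 743 RPKM without drug and 212 RPKM at 1 h (log2 −1.79). Of the 33 genes, 32 had less than 50% of their coding length counted. RPS25, at −3.77 the lowest, rested on 167 and 8 reads over 9.06% of its coding length, with 78.6 to 174 RPKM without drug and 8.88 RPKM at 1 h. Against the untreated library the RPS median was −0.00 and the RPL median 0.16, and against the DMSO 2 h library of passage 3 they were −0.08 and 0.04. As TMM-scaled reads they were −0.18 and −0.25. RPL8, the RPL gene with the most reads, was at 0.06. EEF2, the elongation factor with a known 5′ TOP sequence and a fully counted coding region, had 1386, 1468, 1371 and 853 RPKM without drug and 1306 RPKM at 1 h (log2 −0.17). The part of the incomplete counting in these results was not tested.

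The change at 1 h was ordered by the length of the 5′ UTR. Among 805 genes with 5′ UTRs of at most 25 nt the median change was 0.15 and 0.497% were lower by a fold of 2. The median was 0.10 for 26 to 50 nt, −0.02 for 51 to 100 nt, −0.21 for 101 to 200 nt, −0.45 for 201 to 400 nt and −0.76 for 401 to 800 nt. Among 150 genes with more than 800 nt it was −1.25, and 99 of them (66%) were lower by a fold of 2. In the same order of lengths the drug-free ratio of DMSO at 2 h to untreated had medians between 0.00 and −0.09, and the mRNA change at 2 h went the other way, from −0.10 to 0.34. Among the lists, the median 5′ UTR was 357 nt for TGF-beta and BMP genes, 278 nt for PI3K and mTOR genes and 259 nt for Notch and Wnt genes, against 29 nt for mitochondrial ribosomal proteins and 36 nt for histones. Lists did not all keep to that order, as RPS genes had a median of −0.77 with 46.5 nt and receptor tyrosine kinases −0.30 with 262 nt. These are descriptions over genes, which are not replicates, and the annotated transcript need not be the one these cells use.

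**Figure D3:**
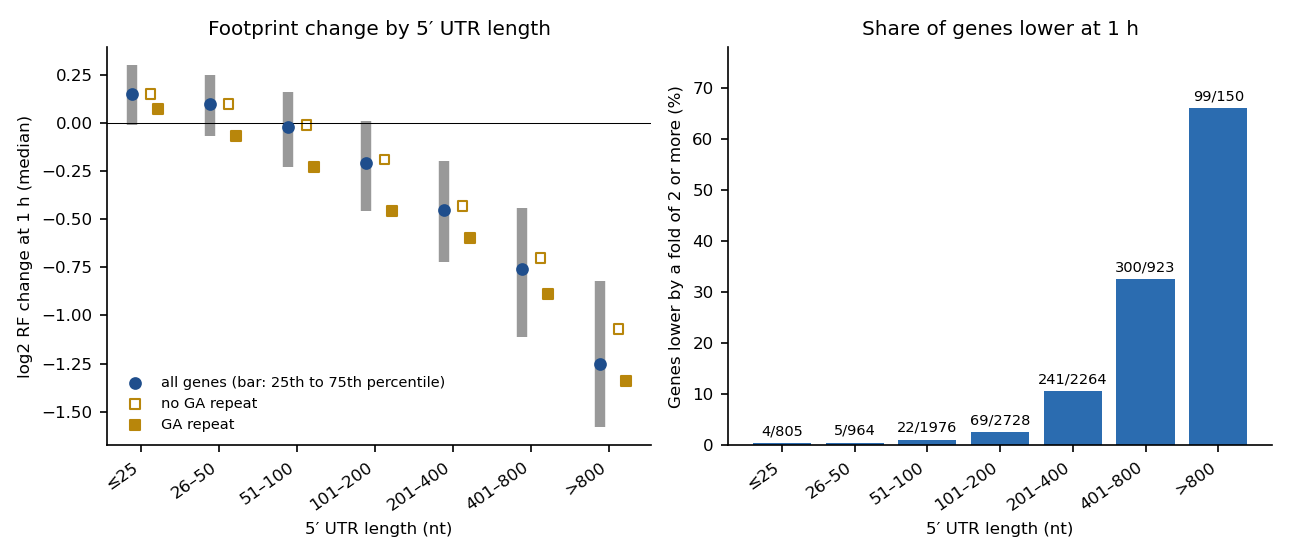
Left, median log2 RF change at 1 h (y axis) by annotated 5′ UTR length in nt (x axis), for all genes (circles, bars from the 25th to the 75th percentile) and for genes without (open squares) and with (filled squares) a GA repeat. Right, percent of genes lower by a fold of 2 or more, with lower and all genes above each bar. The median runs from 0.15 at 25 nt or less to −1.25 above 800 nt.

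GA repeats went with a lower ratio at each length. Among genes with 101 to 200 nt, the median was −0.46 for 213 genes with a repeat and −0.19 for 2515 without. For 201 to 400 nt it was −0.60 and −0.43, for 401 to 800 nt −0.89 and −0.70, and above 800 nt −1.34 and −1.07. With and without a CGG repeat the median was −0.32 and −0.20 for 101 to 200 nt, −0.53 and −0.45 for 201 to 400 nt, −0.93 and −0.74 for 401 to 800 nt and −1.26 and −1.25 above 800 nt. By GC content, at 201 to 400 nt the median was −0.46 for 571 genes under 60% GC and −0.45 for 980 genes of 70% GC or more, and above 800 nt it was −1.34 for 68 and −1.11 for 26 genes. With and without an upstream ATG the median was −0.47 and −0.43 at 201 to 400 nt, −0.79 and −0.57 at 401 to 800 nt, and above 800 nt −1.24 (145 genes) and −1.51 (5 genes). Of genes lower by a fold of 2, 35.3% had a GA repeat, 13.1% a CGG repeat and 75.3% an upstream ATG, against 11.1%, 4.91% and 39.1% of all genes. Their median 5′ UTR was 422 nt. Genes above 0.5 on the log2 scale had a median 5′ UTR of 57.5 nt and a coding sequence of 982 nt, against 1449 nt for all genes.

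The 2 h libraries gave the replicated comparison. With 2 DMSO and 2 Silvestrol libraries, edgeR called 677 of 11197 genes lower (6.05%) and 181 higher (1.62%). A block for the passage made these 2983 (26.6%) and 2671 (23.9%). Without either Silvestrol library the fit without the block called 0 genes in each direction, with 1152 lower and 425 higher at an unadjusted p under 0.05 when the passage 3 library was left out and 1255 and 658 when the passage 4 library was. Of the 758 genes lower at 1 h, 364 (48%) were called lower at 2 h and 691 (91.2%) with the block, 0 were called higher, and 4 with the block. Of the 10 genes higher at 1 h, 2 were called higher at 2 h and 8 with the block. Over genes, the 1 h change correlated with the 2 h change with r = 0.84 in passage 3 (9930 genes) and 0.73 in passage 4 (9900 genes), and with the mRNA change with r = −0.03 (9915 genes). The 1 h libraries and the passage 3 libraries at 2 h share a passage number, and the points share the counted positions of each gene. The median mRNA change of the 758 genes was 0.18, with 4 of them lower and 40 higher by a fold of 2.

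For genes lower at 2 h, most of the size of the change was present at 1 h. In both passages at 2 h, 914 of the 9930 genes (9.2%) were lower by a fold of 2, and 535 of these (58.5%) were already that low at 1 h. The 1 h log2 change was 69.3% of the mean 2 h change in the median gene of the 914 (25th to 75th percentile 58.3% to 80.9%). Of the 16 genes higher by a fold of 2 in both passages, 3 were that high at 1 h, and the median 1 h change of the 16 was 0.50. The 535 genes low at both times had a median 5′ UTR of 447 nt and a GA repeat in 38.9%, and the 379 that passed the fold only at 2 h had 268 nt and 27.4%. SPRY2, SMAD3, MAML2 and FOSL2 had 1 h changes further below 0 than in passage 4 at 2 h, and in passage 3 SMAD3 (−1.73) and FOSL2 (−2.11) were slightly lower at 2 h. FOSL2 had 133.7, 142, 144 and 94.2 RPKM without drug, 35.6 RPKM at 1 h and 33.4 and 34.4 RPKM at 2 h. FLNC, an actin-crosslinking filamin, had 91.2, 88.0, 83.9 and 52.4 RPKM without drug, 38.3 RPKM at 1 h (log2 −1.20) and 9.97 and 8.22 RPKM at 2 h (adjusted p = 0.022), with log2 changes of −3.07 and −2.67. DDX6, a helicase of P-bodies, was at −1.56 and about at the fold of 2 itself as CPM, and at −2.47 and −2.02 at 2 h.

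**Figure D4:**
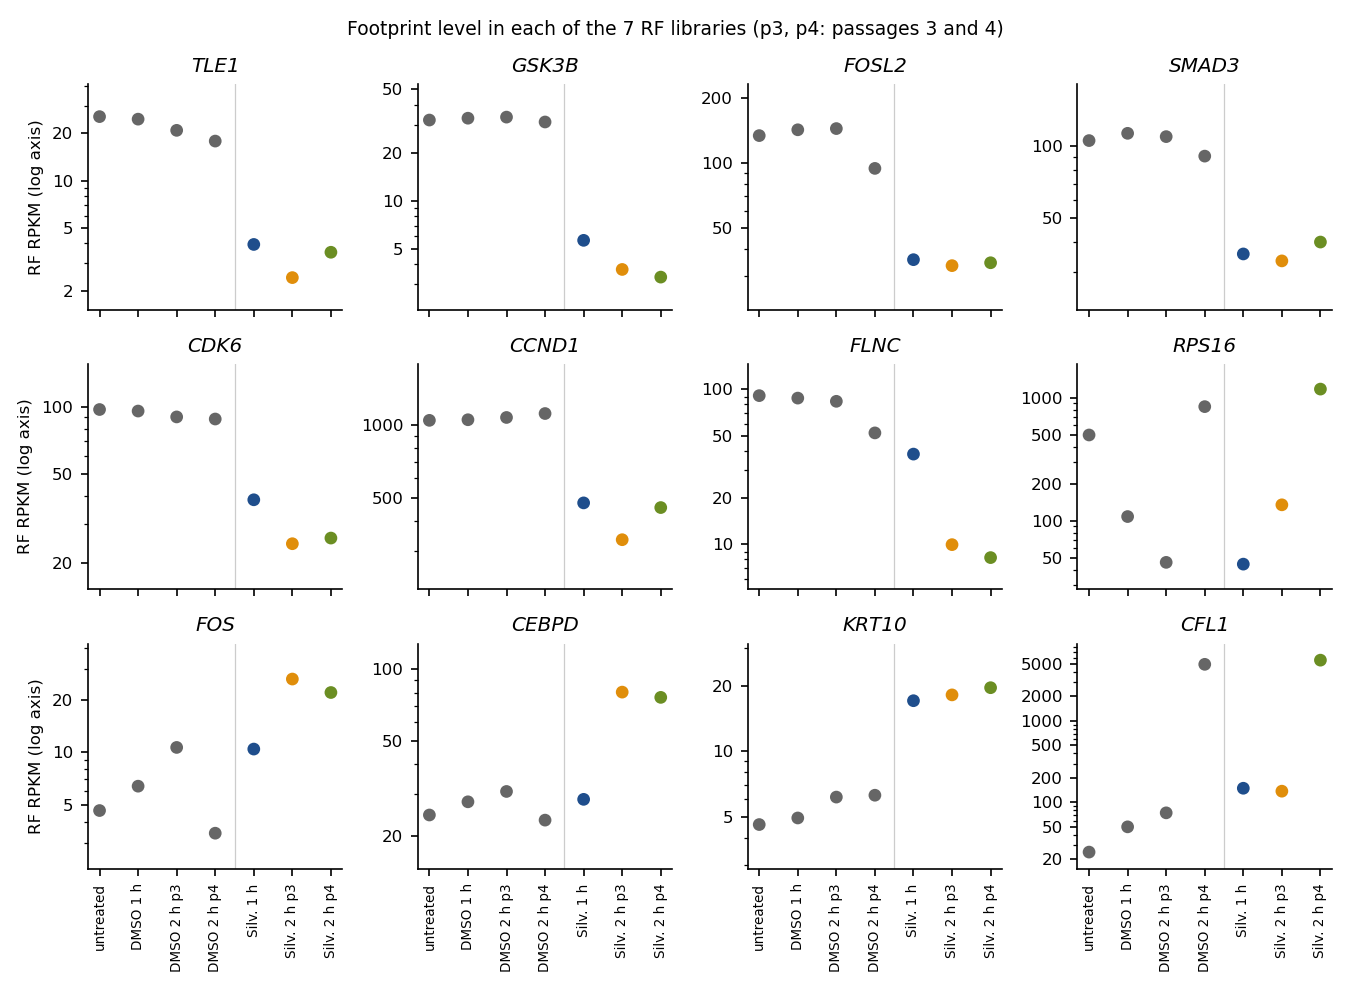
RF RPKM (y axis, log scale) of 12 genes in each of the 7 RF libraries (x axis). Grey points are the 4 libraries without drug, blue is Silvestrol at 1 h, and orange and green are Silvestrol at 2 h in passages 3 and 4. TLE1, GSK3B, FOSL2, SMAD3, CDK6 and CCND1 lie well under their drug-free points at 1 h, FLNC goes lower by 2 h, CEBPD is at its drug-free level at 1 h only, and RPS16 and CFL1 vary widely without drug.

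Few genes were past the fold at one time and close to 0 at the other. At 1 h but not at 2 h (above −0.5 in both passages) there were 12 genes, of which 7 encode ribosomal proteins. S100A11, a calcium-binding protein, had 6078 to 8066 RPKM without drug, 2784 RPKM at 1 h (log2 −1.13) and 5716 and 6324 RPKM at 2 h, with 5.56% of its coding length counted. The ubiquitin ligase TRIM62 (−1.05 at 1 h, −0.32 and −0.37 at 2 h) and C14orf4 (32.4 to 16.2 RPKM at 1 h, −0.44 and −0.45 at 2 h) were fully counted and lay on this side by a small margin. In the other order, 5 genes were above −0.25 at 1 h and lower by a fold of 2 in both passages at 2 h (TMEM99, C7orf41, TMEM116, ABCA3 and CDADC1), with 121 to 225 reads in the DMSO 1 h library and 3 to 6 in the passage 4 Silvestrol library. At 2 h none of the 5 was called (edgeR adjusted p from 0.086 to 0.15), and all 5 were called lower with the block. By that 1 h cut of −0.25 with its sign turned, CEBPD, ZC3H12A and ZNF589 were higher by a fold of 2 in both passages at 2 h only. By the 2 h cut of −0.5 with its sign turned, PSMA6 was the only gene higher at 1 h only. It was at 1.18 at 1 h and at 0.33 and −0.07 at 2 h (edgeR adjusted p = 0.39), with 15.6% of its coding length counted. ZNF589 (1.13 to 2.32 RPKM without drug, 2.79 and 2.94 RPKM at 2 h) rested on 10 and 11 reads in the passage 4 libraries and was called at 2 h with the block only (edgeR adjusted p = 0.087 without, 0.0021 with it). CEBPD, a stress-responsive transcription factor, had 24.5, 27.8, 30.7 and 23.3 RPKM without drug, 28.5 RPKM at 1 h and 80.3 and 76.3 RPKM at 2 h (adjusted p = 0.027). ZC3H12A, an RNase that limits inflammatory mRNAs, was at −0.19 at 1 h and at 1.01 and 1.66 at 2 h (adjusted p = 0.29, and 2.6e-11 with the block).

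Among immediate early genes no difference between the times was tested. Their median was −0.49 at 1 h, with 5 of 49 genes past the fold (10.2%, against 7.63% of all genes), and −0.06 and 0.43 at 2 h, where the mRNA median was 0.73. The list's median was 0.24 for DMSO at 2 h over untreated, without drug, and −0.31 at 1 h with the untreated library as control. The genes past the fold at 1 h were FOSL2, JUN (−1.47), KLF4 (−1.14), BTG1 (−1.12) and TSC22D1 (−1.07). FOS had 4.63, 6.39, 10.7 and 3.43 RPKM without drug, 10.4 RPKM at 1 h, inside that range, and 26.4 and 22.1 RPKM at 2 h (adjusted p = 0.10, and 3.7e-22 with the block), while its mRNA was 10.8 against 1.59 RPKM. At 2 h 1 gene of the list was called lower and 1 higher (6.05% and 1.62% of all genes), and 12 and 25 with the block (26.6% and 23.9%). The 296 C2H2 zinc finger genes had medians of −0.22 at 1 h, close to that of all genes, −0.10 and 0.20 at 2 h and 0.63 in mRNA. Whether the mRNA change had begun by 1 h was not measured.

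**Figure D5:**
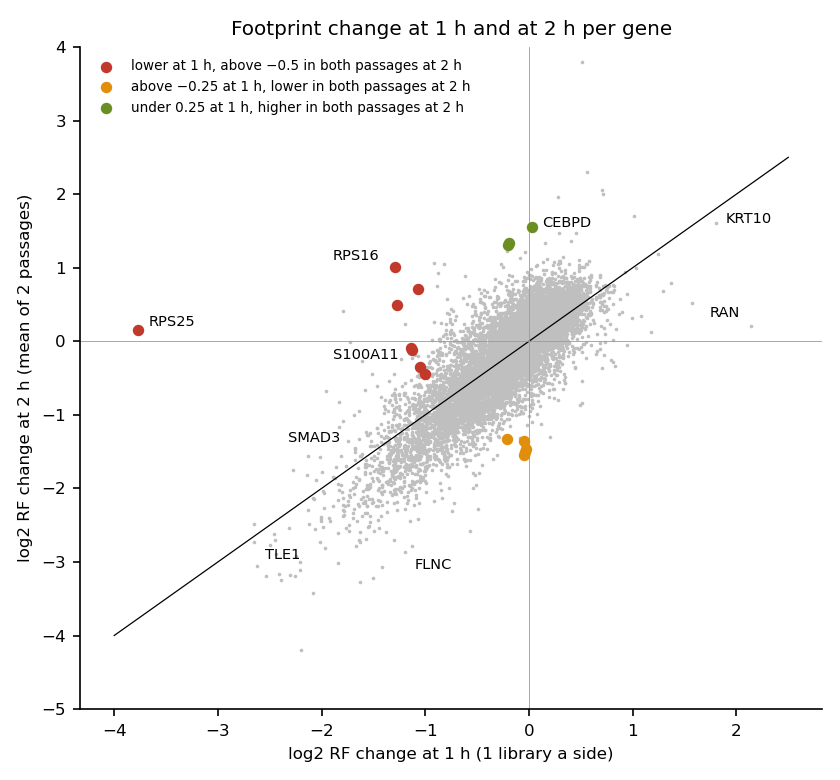
Each point is one of 9900 genes, with the log2 RF change at 1 h on the x axis and the mean of both passages at 2 h on the y axis, and the line marks equal change. Red points are 8 of the 12 genes lower by a fold of 2 at 1 h but above the text's cut at 2 h. Orange points are the 5 genes lower by a fold of 2 in both 2 h passages and above the text's 1 h cut. Green points are the 3 genes higher by that fold in both 2 h passages and below that 1 h cut with its sign turned. Of the 914 genes lower by a fold of 2 in both passages at 2 h, 50 had a 1 h change as large as the 2 h change.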

How the data were processed

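Bowtie alignments to hg19 and to the canonical transcripts of UCSC KnownGene, made after linker and rRNA removal, are the base of the read counts that the authors deposited, which hold unique reads only. They also deposited RPKM values, computed without positions that repeat elsewhere or that several transcripts share. The authors' own TE, log2 change and score columns were not used, nor was the INK128 table. Repeated lines were dropped (25758 of 38897 were distinct), and for symbols with several entries the one with the highest mean RF RPKM at 2 h was kept. The members and gene lists were chosen with earlier results of these data known.

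Changes at 1 h are log2 ratios of RPKM without a pseudocount. Counted length is reads over RPKM, corrected for the libraries' scaling, and its share of the annotated coding length is relative to the median gene. The ratio of deposited RPKM scaling to counted reads differed by −0.1224 on the log2 scale between the 1 h libraries. The 2 h test of the counts used edgeR 4.0.16 under R 4.3.3 (TMM, filterByExpr, quasi-likelihood test) and p-values adjusted by Benjamini-Hochberg, with 0.05 as the threshold. DESeq2 1.42.0 was an alternative. On simulated counts for 11035 genes this test called 11 of 100 genes changed by 1 on the log2 scale, 77 of 100 changed by 2, and 1 of 10835 unchanged genes. Replicate numbers 1 and 2 stand for passages 3 and 4, as the labels give them. The passage deviations of the DMSO and the Silvestrol libraries had a correlation of 0.7772 (11197 genes), and the numbers were taken to pair them. The study treats the passages as biological replicates. Columns of per-sample reads and RPKM left out of the Silvestrol data numbered 0.

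Transcripts came from GENCODE 44 lifted to GRCh37, mostly MANE Select (99.49% of 9821 matched members). Named genes were the 10 lowest and 10 highest changes at 1 h with counted lengths within 1.25 times of each other and, for the highest, 100 reads in both libraries. To these were added the lowest, highest and 2 most read members of each of 50 lists (2 of which had 0 members, and 1 is not reported here), 14 genes that include cyclins, CDKs and the EIF4A genes and genes that differed in timing. Other members past the fold in a list, and the individual alternatives marked so, were named after their values were seen.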

Additional observations from a re-analysis of the deposited data

Results flagged for a closer look

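RPS16 and RPS4X were picked out because their 1 h change went against both passages at 2 h. RPS16 was at −1.29 at 1 h and at 1.56 and 0.47 at 2 h. RPS4X was at −1.07 at 1 h and at 0.34 and 1.09 at 2 h. The differences between the times were not tested. About 10.8% of the coding length of RPS16 and 10.6% of that of RPS4X was counted, and the part of that in the result was not tested. No group holds 4 or more libraries, so no library was compared with its group in that way.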

How the results depend on the processing

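The genes lower at 1 h numbered 758 and those higher 10. They numbered 410 and 26 with TMM-scaled reads, 437 and 22 after centring on the median of all genes, 484 and 21 as CPM without the counted length, and the median change was then 0.00, 0.00 and −0.05. With the untreated library as control 22 genes were higher, and with the DMSO 2 h library of passage 3, 18. A minimum of 500 reads gave 505 lower and 2 higher, no minimum 1409 and 299, a pseudocount of 1 RPKM 503 lower, a fold of 1.5 2145 and 102, a fold of 3 113 and 2, and genes with at least 50% of their coding length counted (added after seeing the data) 2 higher. The other counts stayed within 1.5 times. The RPS median of −0.77 moved to −0.00 with the untreated library. The RPL median was 0.16 with the untreated library, 0.04 with the DMSO 2 h library and 0.71 for the 1 gene with at least 50% counted. At 2 h a block for the pairing by passage gave 2983 genes lower and 2671 higher, against 677 and 181, and the cause was not tested. Leaving out 1 library gave 0 to 626 lower and 0 to 114 higher, with 0 in both directions without either Silvestrol library (1152 lower and 425 higher at an unadjusted p under 0.05 without that of passage 3, 1255 and 658 without that of passage 4). DESeq2 called 563 higher and edgeR without a filter on low counts 289. Of 527 recomputed list medians, 503 moved by less than 0.23 (the SD of the drug-free ratio), 21 moved further and 3 changed sign from a median at least 0.32 away from 0, all 3 in the RPL list. Centring took the same −0.19 from every list, so it could not move any list past 0.23. Sign changes of medians nearer to 0 than 0.32 were not counted. Among 34 named genes, 68 of 170 recomputed 1 h values left their counting interval, and 37 of 272 recomputed 2 h values lost a call and 17 gained one. None past the fold at 1 h turned direction, nor did any 2 h value called in either fit. Turns of smaller 1 h changes were not counted. EIF4A1 (0.60 against DMSO at 1 h) had 151 RPKM with Silvestrol at 1 h and 164 RPKM in the untreated library. The passage 4 Silvestrol library had the fewest reads, 2652423.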
